A study of Onthophagus taurus with 15 samples.

Results

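The head horn and the thoracic horn of large male pupae of the dung beetle Onthophagus taurus were compared in gene expression. The comparison used 10 of the 15 arrays of the series, 5 with head horn and 5 with thoracic horn, and the 5 arrays with legs served as an outside reference. On every spotted array an appendage was hybridised together with dorsal abdominal epithelium, a body region without horns, each labelled with its own dye. Per the labels, pupae of a laboratory colony were taken within 24 h of pupation, tissue of 4 pupae was pooled for each RNA sample, and appendage and abdomen on 1 array were dissected from the same individuals. The arrays of each tissue, stated to be independent replicates, are lettered A to E, and the appendage carried Cy3 for A, C, E and Cy5 for B, D. For each letter the thoracic horn value of a clone was subtracted from its head horn value, and clones with both values in at least 4 letters were kept. This left 3598 of the 3840 spotted clones. Of the 242 clones left out, 155 had both values in 3 letters and 7 in none.

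Beetle horns are solid outgrowths of the body wall that form from epidermis before the pupal moult and are not modified limbs, although they draw on genes that also pattern legs. In this species large males keep their head horns as adults and use them in fights. The thoracic horn is a structure of the pupa that is removed by cell death before the adult emerges. Both horns were sampled here at the start of the pupal stage.

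The values are log ratios of an appendage against abdomen. No source used here gives their base, which was read as log2. A positive ratio was taken as higher in the appendage, which is likely, because the labels name the appendage first, but is stated nowhere in the sources used here. If the ratios ran the other way, every sign below would turn and "higher in head horn" would read "higher in thoracic horn". The files pair no clone with a gene, so clones are given by ID, the dissected tissues could not be checked against marker genes, and no sequence is shown. Several clones may come from the same transcript. The samples are bulk tissue, so fewer cells of a type and less RNA per cell cannot be told apart. The abdominal samples of a letter carry different numbers for the 2 horns, so a difference between the horns also holds any difference between 2 abdominal samples. The labels do not say whether the 2 horns of a letter came from the same animals.

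The first question was which clones differ between the 2 horns. Of 3598 clones, 25 (0.695%) were called, that is, had an adjusted p under 0.05 in the limma fit of the same-letter differences against 0. Of these, 10 (0.278%) were higher in head horn and 15 (0.417%) higher in thoracic horn. At least 2-fold differences made up 21 of the calls (0.584% of clones), 7 in favour of head horn and 14 in favour of thoracic horn. All 25 called clones had values in 5 letters and the same sign in each, as 15.5% of all tested clones had in the letters with a value. With every array scaled to 1 spread the calls fell to 12, now 7 in favour of head horn and 5 in favour of thoracic horn. The arrays of the horns did not overlap at all in 4 of the 10 and 8 of the 15 called clones, as in 1.78% of all tested clones. Sharing a sign and not overlapping are both read from the arrays that chose the clones, so neither is separate evidence. The calls rest on all 5 letters together. Without letter A, B, D or E 1 clone was called, and without letter C 2 clones, with 3 of 4 letters required.

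**Figure D1:**
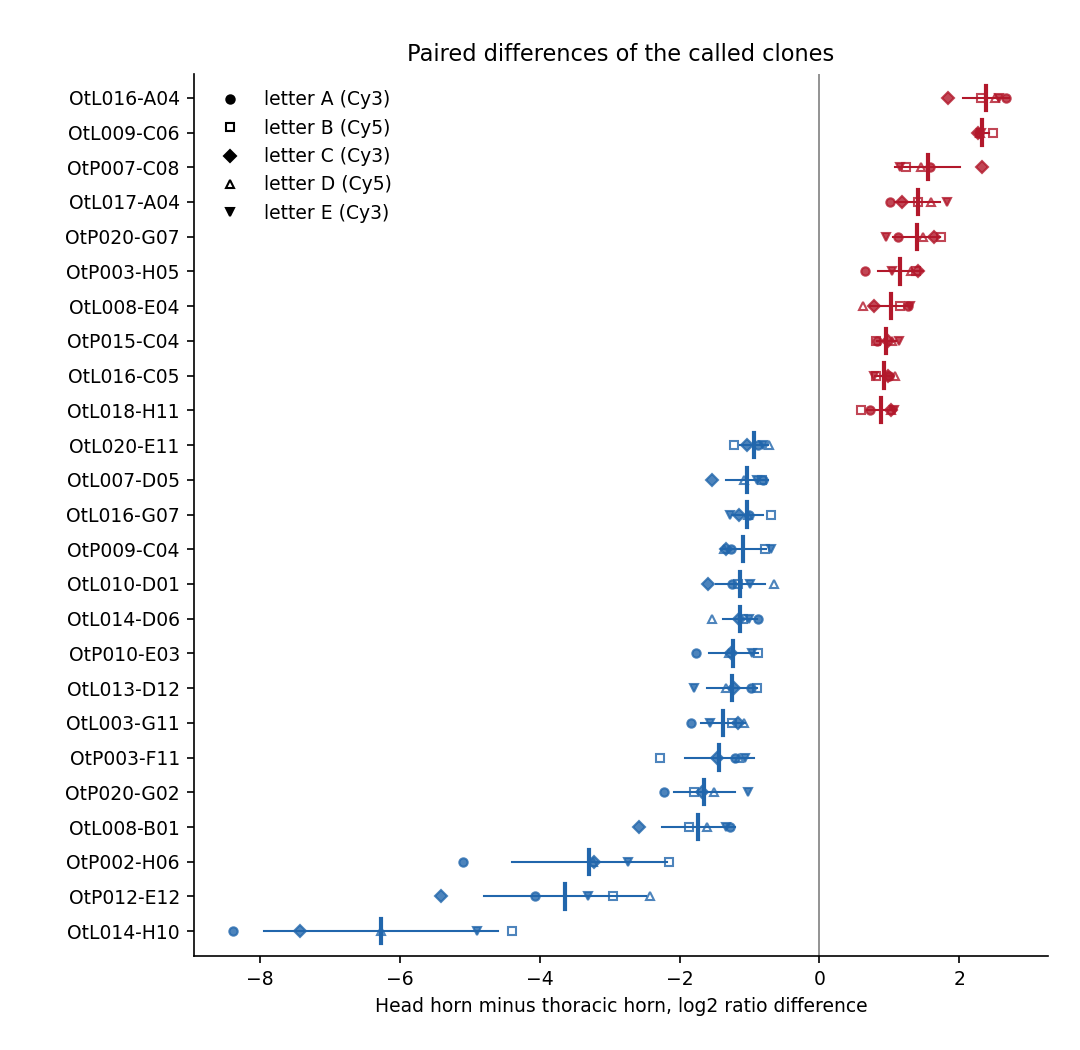
Same-letter differences of the 25 called clones, head horn minus thoracic horn, in log2 units. Points are letters A to E (open symbols have the appendage in Cy5), the vertical tick is the mean and the bar is ± SD (n = 5). Every letter of a clone lies on the same side of 0, and OtL014-H10 reaches a mean of -6.27.

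Differences in favour of head horn were led by OtL016-A04 and OtL009-C06. For OtL009-C06 the head horn ratios were 2.95, 4.07, 1.32, 2.64 and 2.60 on letters A to E, and the thoracic horn ratios were 0.68, 1.59, -0.94, 0.35 and 0.29. Levels moved together from letter to letter, lowest on C and highest on B in both horns, while the difference stayed between 2.26 and 2.49. The mean difference was 2.33 ± 0.09 (SD, n = 5), or 5.01-fold, with an adjusted p of 8.44e-04 by limma, the lowest of all clones. It was called with any 1 letter left out, at an adjusted p of 0.00773 to 0.0215 by limma. No other clone was.

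OtL016-A04 had head horn ratios of 2.94, 3.48, 0.50, 2.90 and 2.85 and thoracic horn ratios of 0.28, 1.17, -1.34, 0.39 and 0.27. Its difference was 2.38 ± 0.33 (SD, n = 5), or 5.20-fold, at an adjusted p of 0.00552 by limma. Over the 15 arrays its ratios correlated at 0.98 with those of OtL009-C06, the highest value for either clone, with a root mean square distance of 0.36. The files do not say whether both come from 1 transcript. In legs both clones lay near their thoracic horn level, at 0.35 ± 1.02 for OtL016-A04 and 0.47 ± 0.93 for OtL009-C06 (SD, n = 5). The next most alike clone, OtP004-B05, followed OtL016-A04 at 0.90 over 14 arrays but differed between the horns by 0.38 ± 0.24 (SD, n = 5, adjusted p = 0.263 by limma).

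OtL017-A04 was positive in head horn on every array, at 1.28, 1.39, 1.58, 1.45 and 2.06, and near 0 in thoracic horn, at 0.28, -0.01, 0.40, -0.15 and 0.23. The ranges of the horns were far apart, and legs lay below both at -0.61 ± 0.33 (SD, n = 5). The difference of 1.40 ± 0.32 (SD, n = 5) had an adjusted p of 0.0334 by limma. The clone most like it over the arrays was OtL014-H03 (r = 0.93, n = 15), which differed between the horns by 0.77 ± 0.24 (SD, n = 5) without being called (adjusted p = 0.0769 by limma).

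**Figure D2:**
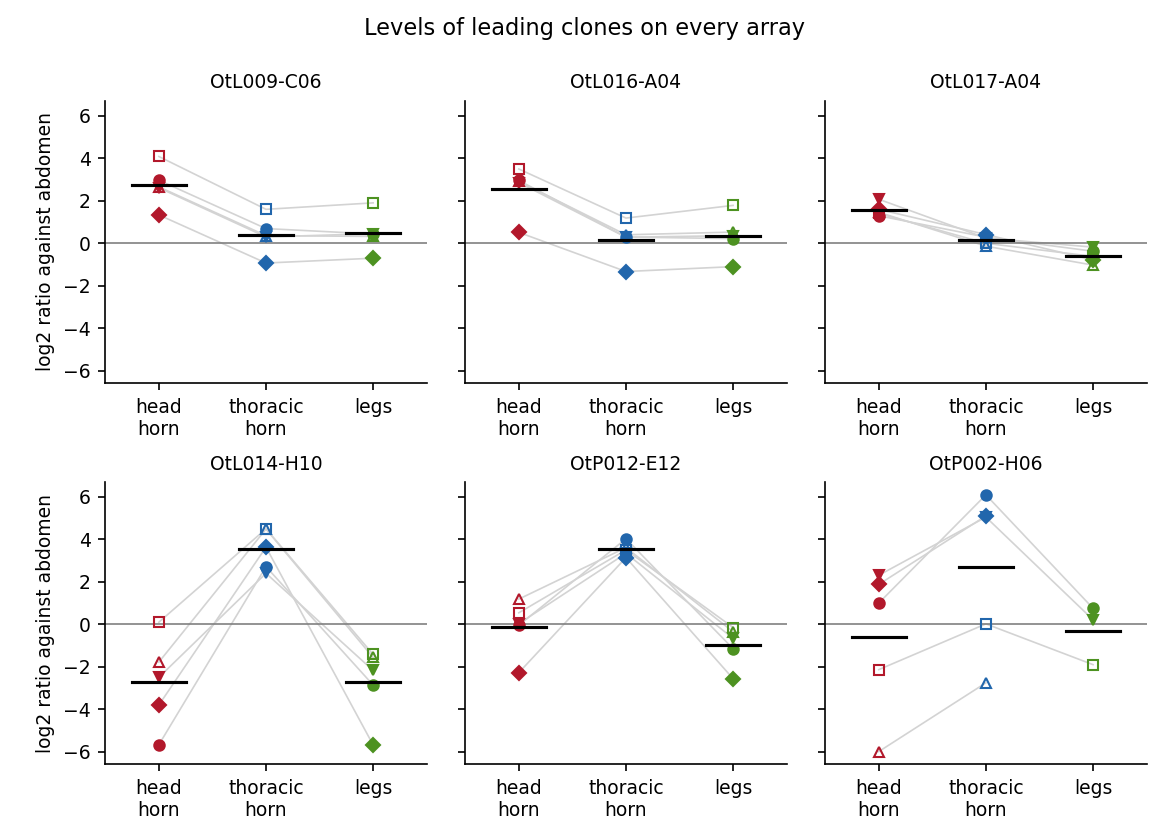
Log2 ratios against abdomen of 6 leading clones in head horn, thoracic horn and legs. Points are arrays, with symbols by letter (circle A, square B, diamond C, upward triangle D, downward triangle E), open for Cy5. Grey lines join a letter and black bars are means. OtL009-C06 and OtL016-A04 are high in head horn alone, OtL014-H10 and OtP012-E12 in thoracic horn alone, and OtP002-H06 falls into a high set (A, C, E) and a low set (B, D) of letters.

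The other 7 clones in favour of head horn differed by 0.88 to 1.55. OtP007-C08 (1.55 ± 0.46), OtP020-G07 (1.39 ± 0.34), OtP003-H05 (1.16 ± 0.32) and OtL008-E04 (1.02 ± 0.30) passed 2-fold (SD, n = 5 each). OtP015-C04 (0.96 ± 0.14), OtL016-C05 (0.93 ± 0.13) and OtL018-H11 (0.88 ± 0.21) stayed below it. Adjusted p for these 7 ran from 0.0334 to 0.0466 by limma. In OtL016-C05 both horns were called positive against abdomen, where head horn averaged 1.95 ± 0.37 and thoracic horn 1.03 ± 0.38 (SD, n = 5). Clones higher in head horn were split by the sign of the thoracic horn mean, which lay near 0 in OtL008-E04 (-0.03). In 5 the thoracic horn mean was positive, at 0.15 to 1.03, and the head horn mean higher, at 1.20 to 2.72. In the other 5 the thoracic horn mean was negative, at -1.09 to -0.03, and the head horn mean positive, at 0.38 to 0.99.

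Against abdomen itself, limma called 37.1% of 3777 clones when the appendage was head horn. The share was 34.2% with thoracic horn and 39.9% with legs. Head horn was called positive in 8 of the 10 clones, where 18.2% of all clones were. Thoracic horn was called positive (16.9% of all clones) in 1 (OtL016-C05), negative in 2 (OtP007-C08 and OtP020-G07) and not called in 7. Legs were called positive in 4 (22.3% of all clones), negative in 3 and not called in 3. OtP020-G07 was the clone of this set in which the horns were called on opposite sides of abdomen, with a head horn level of 0.64 ± 0.14 and a thoracic horn level of -0.75 ± 0.14 (fit ± SE). These counts share the horn arrays with the choice of the 10 clones, so they describe levels and are no separate evidence of a difference.

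The largest differences among the called clones were in favour of thoracic horn, in OtL014-H10, OtP012-E12 and OtP002-H06. The median size was about the same in both directions, 1.25 for clones higher in thoracic horn and 1.27 for those higher in head horn. OtL014-H10 had thoracic horn ratios of 2.71, 4.49, 3.63, 4.48 and 2.40 on letters A to E and head horn ratios of -5.67, 0.10, -3.80, -1.78 and -2.50. Every thoracic horn array was above every head horn array, and head horn varied more between letters. The difference of -6.27 ± 1.67 (SD, n = 5) was 77.2-fold, with a 95% interval of -7.76 to -4.78 and an adjusted p of 0.0334 by limma. Thoracic horn was called above abdomen and head horn below it (3.77 and -2.50, each ± 0.50, fit ± SE). Legs were nearer to head horn than to thoracic horn on all 5 letters, at -2.74 ± 1.74 (SD, n = 5).

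OtP012-E12 stood at 4.02, 3.50, 3.14, 3.61 and 3.34 in thoracic horn and at -0.05, 0.54, -2.28, 1.18 and 0.03 in head horn. The thoracic horn arrays lay within 1 unit of each other, and letter C, lowest in head horn, gave the largest difference. The difference was -3.63 ± 1.16 (SD, n = 5), or 12.4-fold, at an adjusted p of 0.0357 by limma. In legs the clone was at -0.98 ± 0.96 (SD, n = 5).

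OtP002-H06 was a different case, because its level differed between the dye layouts in both horns. In thoracic horn it was 6.09, 5.10 and 5.04 on letters A, C and E but 0.02 and -2.76 on B and D, and in head horn the A, C and E arrays were all positive, up to 2.30, against -2.14 and -5.99 on B and D. Its mean ratio against abdomen joins these separate sets. Same-letter differences, in which a dye bias shared by both arrays drops out, were -5.09, -2.15, -3.22, -3.23 and -2.74. Their mean of -3.29 ± 1.10 (SD, n = 5) was 9.76-fold, at an adjusted p of 0.0357 by limma. Legs had values in 3 letters for this clone, so it was left out of the fits with legs.

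OtL003-G11 and OtL020-E11, with smaller differences, completed the set in which the thoracic horn mean was positive. OtL003-G11 differed by -1.38 ± 0.31 and OtL020-E11 by -0.93 ± 0.20 (SD, n = 5 each, adjusted p = 0.0334 and 0.0357 by limma). In OtL020-E11 the arrays were all positive in thoracic horn, at 0.44 to 0.92, and all negative in head horn, at -0.41 to -0.02, so that the ranges did not overlap. Thoracic horn was called above abdomen in all 5 clones of this set, and head horn was called below it in OtL014-H10 and not called in the other 4. For OtP002-H06 the thoracic horn call rests on letters A, C and E, with 0.02 and -2.76 on B and D.

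The remaining 10 clones in favour of thoracic horn had negative mean ratios in both horns, nearer to 0 in thoracic horn. They were OtL008-B01, OtP020-G02, OtP003-F11, OtL013-D12, OtP010-E03, OtL014-D06, OtL010-D01, OtP009-C04, OtL016-G07 and OtL007-D05, with differences from -1.73 to -1.03. Head horn means ran from -2.88 to -1.19 and were called negative in 10 of 10 (18.9% of all clones). Thoracic horn means ran from -1.58 to -0.15 and were called negative in 7 of 10 (17.3% of all clones), the others being OtL016-G07, OtP009-C04 and OtP010-E03, each with arrays on both sides of 0. The clones were grouped by the sign of these means, so nothing is read from these counts. Legs were called below abdomen in 9 of the 10, where 17.6% of all clones were, the exception being OtL016-G07 at 0.42 ± 0.64 (SD, n = 5). The 10 were grouped as low in both horns and all clones were not, so 17.6% is no matched share. With every array scaled to 1 spread, OtP003-F11 and OtL008-B01 were the only clones of the 10 still called (adjusted p = 0.0475 each by limma).

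OtL008-B01 shows the pattern, at -2.19, -1.93, -2.63, -1.98 and -2.35 in head horn and -0.91, -0.07, -0.06, -0.38 and -1.02 in thoracic horn. Every head horn array was below every thoracic horn array, and legs were lowest at -2.69 ± 0.38 (SD, n = 5). The difference was -1.73 ± 0.53 (SD, n = 5), or 3.32-fold, at an adjusted p of 0.0357 by limma. In OtP020-G02 the ranges did not overlap either, with head horn at -3.86 to -2.40 and thoracic horn at -2.07 to -0.27. Letter B was lowest in both horns, and the same-letter differences of -2.22, -1.79, -1.68, -1.51 and -1.03 averaged -1.64 ± 0.43 (SD, n = 5, adjusted p = 0.0334 by limma). Some clones with like profiles were not called. OtL007-G01, most like OtP020-G02 over the arrays (r = 0.94, n = 15), differed by -1.42 ± 0.51 (SD, n = 5, adjusted p = 0.0528 by limma), and OtL008-F04, most like OtL008-B01 (r = 0.96, n = 15), by -1.39 ± 0.63 (SD, n = 5, adjusted p = 0.0964).

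**Figure D3:**
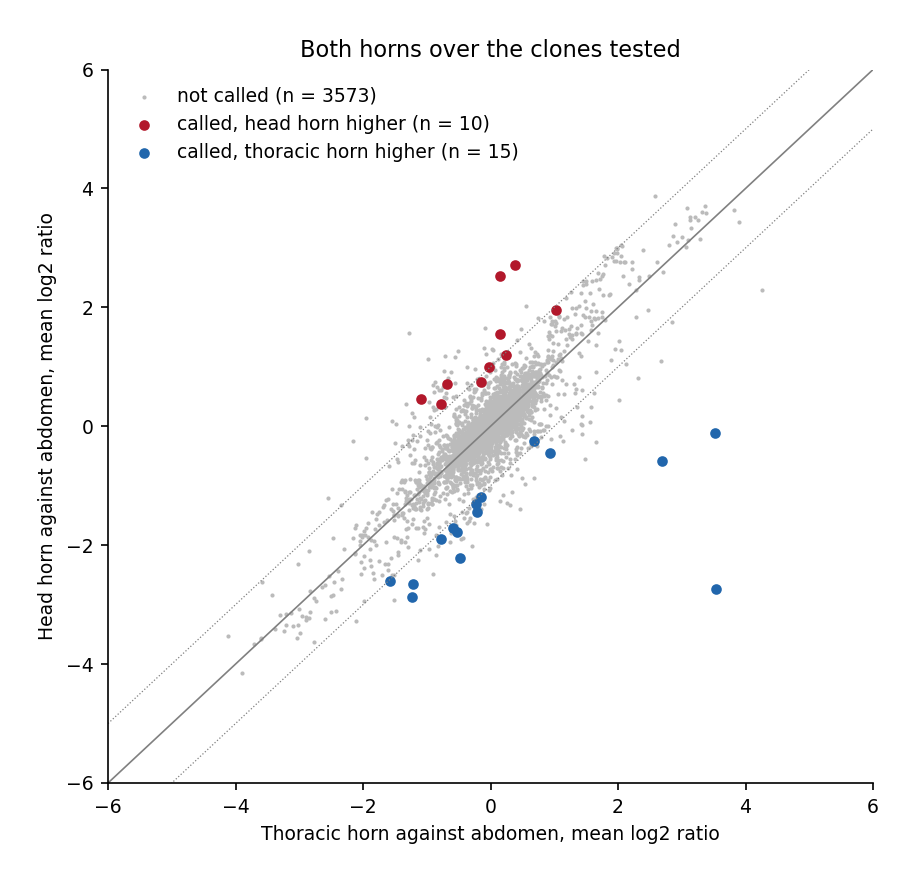
Mean log2 ratio of head horn against that of thoracic horn, both against abdomen, for the 3598 clones tested. The solid line marks equal ratios and the dotted lines 2-fold differences. The 10 clones higher in head horn (red) lie above the line at head horn means over 0, and 10 of the 15 higher in thoracic horn (blue) lie below it with both means under 0.

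Leg arrays had no part in the comparison of the horns and show where another appendage lies for the same clones. Legs were compared with the mean of both horns of the same letter, a measure that does not depend on which horn is higher. That mean does use the horn arrays that chose the called clones. Where the horns lie far apart, legs level with the lower horn fall below the mean, and legs level with the higher horn above it. Of 3521 clones tested, 28.4% were called, 14.7% with legs higher and 13.7% with legs lower. With every array centred on its median the balance turned, to 421 clones higher and 559 lower in legs. Of the 24 clones called between the horns that entered this fit, legs were lower in 14 and higher in 2. The 14 were 6 of the 10 clones higher in head horn and 8 of the 14 higher in thoracic horn. With any 1 letter left out the legs were lower in 13 or 14 and higher in 1 or 2. Legs lay below the mean of the horns, called or not, in 19 of the 24 clones, against 47.2% of all clones, and the median of legs minus that mean was -0.72 against 0.03.

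Legs sided with head horn in most of the clones that were higher in thoracic horn. By the mean level, legs were nearer to head horn in 13 of these 15, the exceptions being OtL016-G07 and OtL020-E11. Over all tested clones with the higher mean in thoracic horn, legs were nearer to head horn in 52.0%, and in 54 of the 74 such clones that differed at least 2-fold, called or not. For the clones higher in head horn, legs were nearer to thoracic horn in 7 of 10, against 42.4% of all tested clones with the higher mean in head horn. The other 3 were OtP007-C08, OtL008-E04 and OtL018-H11. In 45 of the 75 clones that were at least 2-fold higher in head horn, legs were nearer to thoracic horn. The distances use the horn means that also chose the clones, so these counts describe levels and are no separate evidence.

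Legs were also set against each horn by same-letter differences, which share the horn arrays with the comparison above. Over 3521 clones, legs were called different from head horn in 16.1% (7.98% higher and 8.15% lower in legs) and from thoracic horn in 24.3% (12.7% higher and 11.5% lower). OtL009-C06 had a legs minus head horn value of -2.25 ± 0.11 (SE, adjusted p = 0.00188 by limma), and its legs minus thoracic horn value was 0.08 ± 0.12 (SE, adjusted p = 0.649 by limma). OtL014-H10 had a legs minus thoracic horn value of -6.28 ± 0.64 (SE, adjusted p = 0.00341 by limma), with legs minus head horn at -0.01 ± 0.67 (SE, adjusted p = 0.994 by limma). A high adjusted p does not show equal levels. Legs were called lower than each horn by limma in 6 of the 24 clones (5.23% of all 3521), OtL017-A04, OtP003-H05, OtP010-E03, OtL003-G11, OtL008-B01 and OtP012-E12. They were called higher than each horn in 1, OtL016-G07 (5.68% of all).

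Over all tested clones, called ones included, most mean differences between the horns were small. A clone that was not called need not be equal in both horns. The median absolute difference was 0.18 over all tested clones, against 1.25 over the called ones. For 2760 clones (76.7%) the 95% interval of the difference, not adjusted for the number of clones, lay within 2-fold in either direction. The median half-width of that interval was 0.37. At an unadjusted p under 0.05 there were 493 clones by limma, 255 higher in head horn and 238 higher in thoracic horn, where 5% of the clones is 179.9. A further 47 clones had an adjusted p between 0.05 and 0.1.

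Most large differences were not called. Of 149 clones at least 2-fold apart, 75 had the higher mean in head horn and the other 74 did so in thoracic horn. Of all 149, 128 were not called. Of these 128, 65 had the same sign in every letter with a value, and 53 had values in 4 letters only. In the 75 uncalled clones with 5 letters, letter C was the farthest from 0 in 30, where it was so in 21.4% of all clones with 5 letters. OtL003-B02, named here after its values were seen, differed by 6.51 on letter C and by 0.49 to 1.27 on the others (adjusted p = 0.394 by limma).

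Differences between the horns recurred from letter to letter, but weakly. Over clones, the differences of 2 letters correlated at 0.08 to 0.24 in the 10 pairs of letters. The mean was 0.14 for the 4 pairs of the same dye layout and 0.15 for the 6 pairs of opposite layout. For head horn minus legs these means were 0.35 and 0.34, and for thoracic horn minus legs 0.42 and 0.42. Clones share arrays and are not independent, so these correlations describe the tables and carry no p. They bear on the sign of the deposited values, because a dye bias of a clone drops out of the same-letter difference. Ratios that had not been turned for the dye flips would make the pairs of opposite layout negative, and none of the 6 was.

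**Figure D4:**
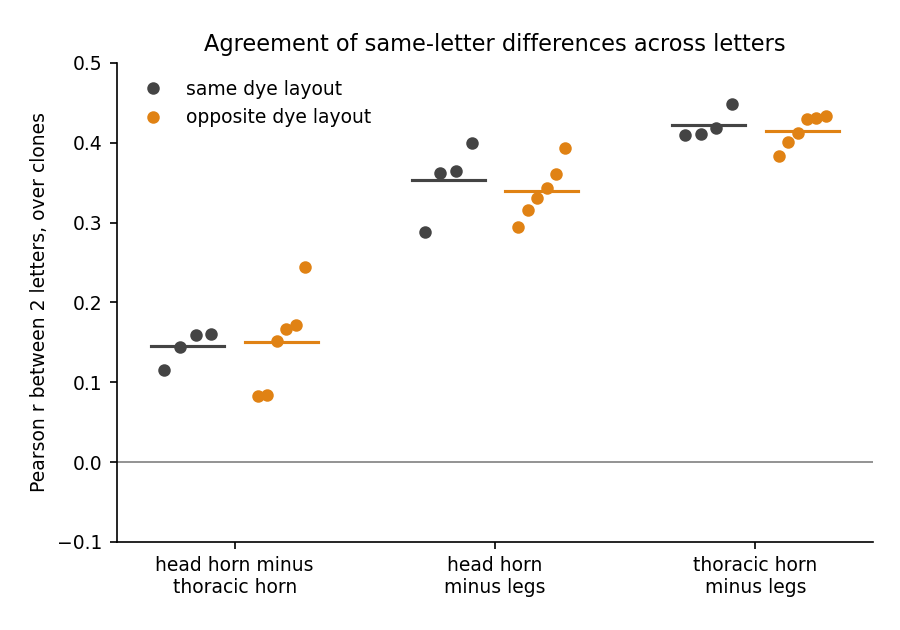
Pearson correlation over clones between the same-letter differences of 2 letters, for the 3 pairs of tissues. Points are pairs of letters and bars are means. Head horn minus thoracic horn lies at 0.08 to 0.24 in both kinds of pair, below both differences with legs.

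The same point was examined clone by clone. A layout term in the fit of the same-letter differences was called in 0 of 3598 clones (0%) by limma. Unadjusted p was under 0.05 in 149 clones, where chance alone gives about 179.9. With this term in the fit, the horn difference itself was called in 2 clones, against 25 without it. Such a fit can call few clones, so the lack of layout calls does not decide whether the ratios had been turned. The 100 clones highest in head horn on letters A, C and E had a median of 0.94 there and 0.57 on letters B and D. Both B and D had the same sign in 53 of them and both had the opposite sign in 15. For the 100 highest in thoracic horn the medians were -1.13 and -0.66, with the same sign on B and D in 66 and the opposite in 12. Over all clones of those signs, B and D both shared the sign of A, C and E in 37.0% of those higher in head horn and in a smaller share of those higher in thoracic horn.

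The size of the difference within a letter was steadier than its clones. The root mean square difference between the horns was 0.62 ± 0.07 (SD over 5 letters) for 3182 clones with values on all 15 arrays. Averaging the 5 letters first lowered it to 0.38. The same averages were 0.55 for head horn and legs and 0.59 for thoracic horn and legs. Within a letter, 10.3% to 13.8% of clones were at least 2-fold apart between the horns, most on letter C.

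Clones low in legs tended to be lower in head horn than in thoracic horn, although not on every letter. Grouping clones by their mean ratio on the leg arrays, a grouping chosen after seeing the data, put 114 clones at -2 or below. Of these, 91 (79.8%) had the lower mean in head horn, with a median difference of -0.36. By letter the medians were -0.91, 0.23, -0.19, -0.85 and -0.17 for A to E, so letter B ran the other way. Leaving out letter A moved the median to -0.19, leaving out D to -0.24 and leaving out B to -0.52. Of the 15 clones called in favour of thoracic horn, 8 were in this group, which held 114 of the 3542 clones with a leg level. Of these 8, only OtP003-F11, OtL008-B01 and OtL014-H10 stayed called with every array scaled to 1 spread. In the 143 clones between 1 and 2 in legs the median was 0.30, positive on 5 of 5 letters, and 39 of them (27.3%) had the lower mean in head horn. In the 39 clones over 2 in legs it was 0.18, but negative on letters A (-0.11) and C (-0.12).

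The spread of the arrays also differed between the horns. Whether it accounts for these medians was not tested. The median absolute deviation of an array was 0.58, 0.67, 0.71, 0.62 and 0.61 in head horn on letters A to E and 0.47, 0.56, 0.63, 0.58 and 0.63 in thoracic horn, larger in head horn on 4 of 5 letters. For the 114 clones at -2 or below in legs, the deposited medians on letters A to E were -0.91, 0.23, -0.19, -0.85 and -0.17. After every array was centred and scaled to 1 spread, the median of the 114 clones was -0.13, with 57.9% lower in head horn. By letter it was then -0.54, 0.71, 0.11, -0.68 and -0.19. Scaling moved the median of the clones between 1 and 2 in legs to 0.15, with letter A at -0.08. It turned that of the clones over 2 to -0.13, with 74.4% lower in head horn.

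**Figure D5:**
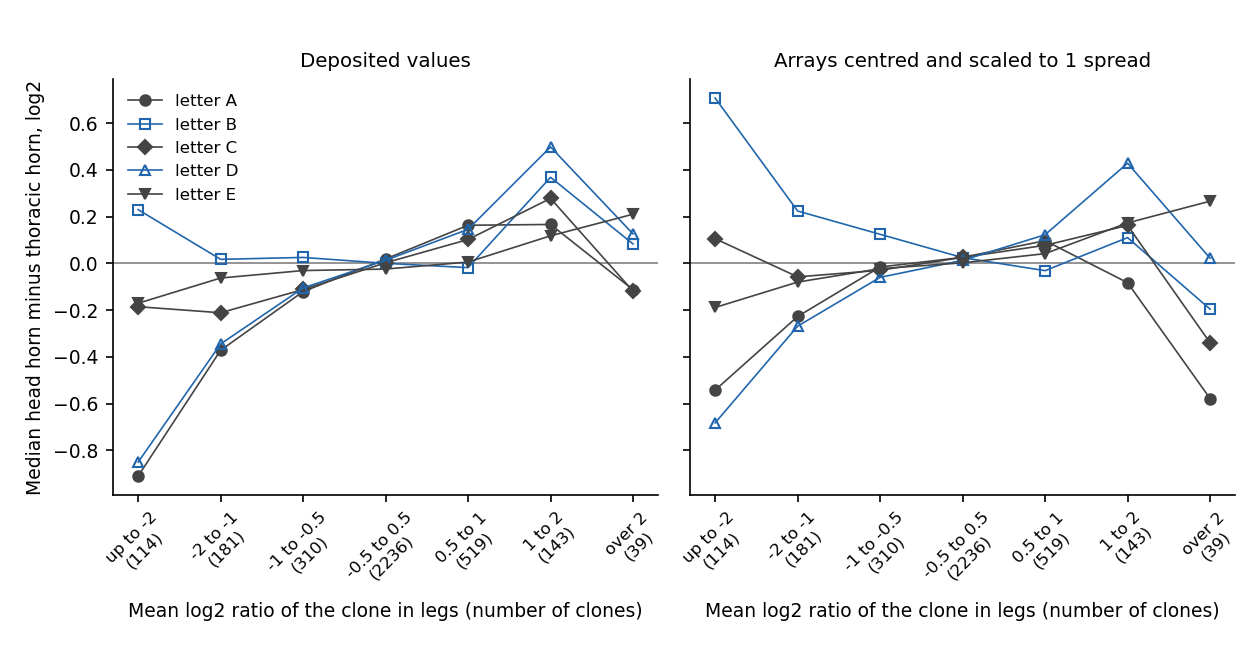
Median head horn minus thoracic horn difference, in log2 units, of clones grouped by their mean ratio in legs, with the number of clones in parentheses. Each line is a letter (open symbols B and D). With the deposited values (left) letters A and D lie lowest for clones up to -2 in legs, and with scaled arrays (right) letters B and C lie above 0 there.

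Called clones were spread over the plates of the clone collection. Clone IDs name 40 plates of 2 series, OtL and OtP, whose meaning is not given. Called clones came from 19 plates, with at most 3 on 1 plate (OtL016). They were 15 of 1826 tested OtL clones (0.821%) and 10 of 1772 tested OtP clones (0.564%). The median difference of a plate lay between -0.07 and 0.13.

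Between 3403 and 3766 clones had both horn values in a letter, fewest on D, where 295 head horn and 321 thoracic horn values were empty. Array medians differed between the horns of a letter by less than 0.02. The signal behind a ratio is unknown, and the number of arrays limits the precision.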

How the data were processed

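The deposited table holds 1 log ratio per clone and array, centred near 0 on every array. The ratios were read as log2 and used as deposited by the authors. The submitters' processing notes name limma. How background, normalization and spot filtering were handled, and the log base, is not given in the sources used here. Scanner files were not used. Clones, lists and rules were chosen with earlier results of these data known. None of the clone IDs matched the 16956 genes of the supplied table, so prepared gene lists could not be applied.

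Same-letter differences were fitted per clone with limma 3.58.1 in R 4.3.3 (lmFit, eBayes, intercept against 0, two-sided), for clones with at least 4 letters, and adjusted by the Benjamini-Hochberg method over all clones tested. The script was tested on simulated data. Letters are paired by the values: deviations of same-letter horn arrays from the tissue mean correlated at 0.48 to 0.61, and within a dye layout at 0.33 to 0.44. The labels do not state the pairing. Tissues were set against abdomen by 1 limma fit over all 15 arrays with a layout term, for 3777 clones with at least 3 values in each tissue. P-values of same-letter differences set the mean difference against the spread between letters. Those against abdomen set a tissue level against the spread between arrays of a tissue. Each RNA sample is a pool of 4 pupae, so variation between single animals was not measured. Alternatives changed the pairing, the letters required or kept, array centring and scaling, and the variance moderation. The grouping by leg level and the count of called clones below the horns in legs were added after seeing the data.

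Named clones were called, of 1 sign in every letter, and among the 12 with the largest mean difference in each direction or among the 3 with the largest moderated t, or had horns called on opposite sides of abdomen. OtL016-G07, OtL007-D05 and OtL020-E11 complete the 25 called clones and were named after their values were seen. For the 5 leading clones of a direction the 2 most correlated clones over at least 12 shared arrays were found, and a selection is named. Figures were drawn with matplotlib 3.10.9.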

Additional observations from a re-analysis of the deposited data

Results flagged for a closer look

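In 78 examinations of 5 letters each (the called clones and 3 summaries), 4 values stood apart from the other letters by Dixon's limit, where chance gives about 1 in 20. OtL016-A04 was at 0.50 in head horn on letter C, with the other letters between 2.85 and 3.48. The difference of OtL009-C06 was 2.49 on letter B, against 2.26 to 2.31 on the others. OtL016-C05 was at 2.61 in head horn on letter C, against 1.70 to 1.92. OtL014-D06 was at -1.24 in head horn on letter B, against -1.91 to -1.74.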

How the results depend on the processing

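The count of called clones depended on the fit. Against 25 calls in the paired fit (21 at 2-fold or more), an unpaired fit with no replicate block and with a dye layout term gave 7 (7 at 2-fold or more) and the letter as a random replicate block over 15 arrays gave 104 (47), of which 24 were among the 25. Scaling the arrays to 1 spread gave 12 (10), a variance trend 8 (7), no variance moderation 1 (1) and a layout term in the paired fit 2 (2). Leaving out 1 letter gave 1 to 2 clones (1 to 2 at 2-fold or more). Restricting the fit to the Cy3 letters (A, C, E) or the Cy5 letters (B, D) gave 0 and 0 by limma, with 315 and 267 clones at an unadjusted p under 0.05. These fits and those without a letter use fewer samples. Legs against the mean of both horns gave 522 to 611 clones without a letter, against 1000. The root mean square difference within a letter was 0.79 over all clones with both values, against 0.62.

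Counts stayed within 1.5 times of 25 with at least 3 letters (19), 5 letters (34), centred arrays (26) and robust moderation (25). None of the 25 clones changed sign in 425 refits, though their letters all share a sign, and 271 refits missed the threshold. OtL009-C06 was called in 14 of its 17 refits and OtL016-A04 in 9. Centring moved the legs count to 980, with 904 clones shared, and its split from 517 higher and 483 lower in legs to 421 and 559.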
